A study of Mus musculus with 743 samples.

Results

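The cytoplasmic ribosomal protein genes were followed through single Schwann cells (SCs) of the newborn mouse sciatic nerve. Members were chosen by symbol: every protein-coding gene named Rps or Rpl with a number, including those ending in a, x or l, together with Rpsa, Rplp0, Rplp1 and Rplp2, and without the S6 kinase genes. The rule found 83 of the 25700 genes of the table, 32 named for the small and 51 for the large ribosomal subunit. The rule itself uses symbols and no measured value.

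The cells came from P0Cre: ReYFP: βAct-DsRed mice at postnatal day 1, in which Cre driven by the P0 (myelin protein zero) promoter switches on eYFP in the SC lineage, and which carry a ubiquitous DsRed as well. Cells positive for eYFP were sorted into wells of 2 plates and their mRNA was sequenced by a miniaturised Smart-seq2 protocol, a full-length method that counts reads and not molecules. All wells belong to 1 group with no treatment. Mice were pooled separately for each plate. Replication is therefore by plate (n = 2), and cells do not count as replicates.

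Of 743 wells, 621 had at least 1500 detected genes and were kept, with a median of 928401 reads per cell on plate 1 and 791056 on plate 2. Cells were called cycling when the proliferation genes Mki67 and Top2a together reached 50 CPM (reads of a gene per 1000000 reads of the cell), promyelinating when they were not cycling and Ncmap, a gene of non-compact myelin, reached 50 CPM, and other in the remaining cases. This gave 53 and 57 cycling, 59 and 60 promyelinating and 175 and 217 other cells on plates 1 and 2. The 7 further proliferation markers summed to 5100 and 4420 CPM in cycling cells and to at most 87.4 CPM elsewhere, and the 10 further promyelinating markers to 18000 and 17900 CPM in promyelinating cells against 4050 to 5160 CPM elsewhere. SC markers (Sox10, S100b and Erbb3) summed to 451 to 765 CPM in every class and plate. Among markers of other nerve cells, the endothelial list reached at most 2.82 CPM, the fibroblast-like list 35.5, the immune list 19.5 and the mural list 57.4 CPM, with Cdh5, Kdr, Pdgfra, Ptprc, Tyrobp, Acta2 and Rgs5 at 0.

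Cytoplasmic ribosomes are built from ribosomal RNA and a set of proteins, most of which are encoded by a single active gene and needed in equal amounts. Their mRNAs typically begin with a C followed by a run of pyrimidines, the terminal oligopyrimidine (TOP) element, through which translation of the whole set responds to growth signals. Many of the genes carry small nucleolar RNAs (snoRNAs), which guide modification of ribosomal RNA, in their introns. A few have minor paralogues, related genes for a similar protein, and most have left processed pseudogenes in the genome.

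The members shared features that the rule did not use. A snoRNA gene lay inside 30 of 83 members on the same strand (36.1%), against 258 of 21851 protein-coding genes of the table (1.18%). Members were spread over 19 chromosomes, with 4 on X. For 63 members the RefSeq promoter table (GRCm38.p6) held a start site. A run of at least 7 pyrimidines beginning with C lay between 50 bases before and 50 bases after the start in 54 of them (85.7%), against 44.5% of 27025 genes, while a C with further pyrimidines, at least 5 bases in all, stood at the start in 13 (20.6%, against 3.008%). The core CGGAAG, or its reverse complement CTTCCG, lay in the 50 bases before and after the start in 24 (38.1%, against 10.4%). These are matches of letters and say nothing of a factor bound. In the stretches shown here, from 50 bases before to 30 bases after a start, capitals mark these runs and cores. Rps3a1 was called lower in cycling than in promyelinating cells, Rps25, Rpl37 and Rpl13a had negative values there that did not pass (edgeR adjusted p = 0.0852, 0.0881 and 0.0737), Rps27 and Rps27l are paralogues that differed in opposite directions, and Rpl7l1 is a minor paralogue with the largest difference between promyelinating and other cells.
Rps3a1 (chr3:86142639-86142718, - strand): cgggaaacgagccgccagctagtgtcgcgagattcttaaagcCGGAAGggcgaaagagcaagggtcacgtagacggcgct
Rps25 (chr9:44407664-44407743, + strand): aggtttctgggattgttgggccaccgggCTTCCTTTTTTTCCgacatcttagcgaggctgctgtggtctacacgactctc
Rpl37 (chr15:5116563-5116642, + strand): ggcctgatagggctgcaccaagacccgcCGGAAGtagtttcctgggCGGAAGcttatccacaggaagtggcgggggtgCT
Rpl13a (chr7:45128716-45128795, - strand): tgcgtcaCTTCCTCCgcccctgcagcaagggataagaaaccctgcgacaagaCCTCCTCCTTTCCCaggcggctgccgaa
Rps27 (chr3:90213619-90213698, - strand): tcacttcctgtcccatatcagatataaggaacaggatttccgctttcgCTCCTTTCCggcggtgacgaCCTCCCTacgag
Rps27l (chr9:66946036-66946115, + strand): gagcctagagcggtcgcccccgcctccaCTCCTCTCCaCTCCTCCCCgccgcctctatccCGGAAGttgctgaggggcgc
Rpl7l1 (chr17:46782627-46782706, - strand): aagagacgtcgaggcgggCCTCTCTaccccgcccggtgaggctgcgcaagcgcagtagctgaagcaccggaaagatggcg
The Rps27 stretch holds a pyrimidine run directly around the start, and that of Rps3a1 holds a CGGAAG core and no run.

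Ribosomal protein mRNAs took a smaller share of the reads in cycling than in promyelinating cells on both plates. Summed over all members, they made up 4.32% and 4.16% of the reads of cycling cells on plates 1 and 2, 5.52% and 4.83% in other cells and 6.01% and 5.70% in promyelinating cells. The means were 4.24% ± 0.11, 5.17% ± 0.488 and 5.85% ± 0.221 (SD, n = 2). The cycling values lay below all others and the promyelinating values above all others. The log2 ratio of cycling to promyelinating cells was -0.48 on plate 1 and -0.45 on plate 2, a ratio of 0.724. It was -0.35 and -0.21 for cycling over other cells and 0.12 and 0.24 for promyelinating over other cells. On TMM-scaled CPM the mean for cycling over other cells was -0.15, against -0.28 on plain shares. With 2 plates an exact two-sided permutation test cannot go below p = 0.333, and no test was run on these sums.

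Both subunits showed this order. Small subunit genes made up 1.64% and 1.56% of the reads of cycling cells and 2.19% and 2.13% of those of promyelinating cells. Large subunit genes made up 2.67% and 2.603% in cycling and 3.82% and 3.57% in promyelinating cells. The log2 ratios of cycling to promyelinating cells were -0.43 ± 0.027 for the small and -0.48 ± 0.043 for the large subunit (SD, n = 2).

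**Figure D1:**
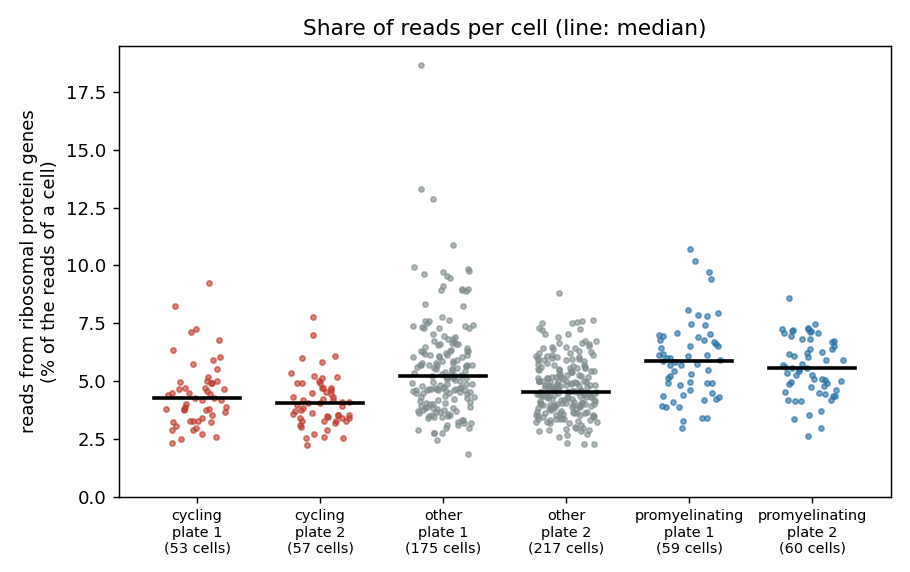
Reads from the 83 ribosomal protein genes as a percent of the reads of each cell, by class and plate, with a line at the median. Cells overlap widely between classes, and the medians are lowest in cycling cells (4.27% and 4.07%) and highest in promyelinating cells (5.88% and 5.55%).

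Single cells overlapped widely. The share ranged from 2.30% to 9.24% in cycling cells of plate 1 and from 2.25% to 7.78% on plate 2, and from 2.96% to 10.7% and 2.64% to 8.60% in promyelinating cells. Other cells reached from 1.86% to 18.7% on plate 1, the widest range, and from 2.29% to 8.79% on plate 2. The cell at 18.7% had 67774 reads and 1567 detected genes, close to the minimum of 1500. Other measures moved with the classes: the median share of mitochondrial reads was 3.03% and 3.29% in cycling, 3.67% and 4.01% in other and 4.36% and 4.48% in promyelinating cells, and the 8 dissociation response genes summed to 5050 and 7290, 5650 and 5990, and 2230 and 2420 CPM. Their part in the result was not tested. Within other cells, the share of ribosomal protein reads ranked against the dissociation response genes with Spearman's rho of -0.46 over 175 cells of plate 1 and -0.39 over 217 cells of plate 2, measures that come from the same libraries. In cycling cells these values were -0.058 and -0.17, and in promyelinating cells -0.28 and -0.087. Against the mitochondrial share, rho was negative in every class and plate (-0.18 to -0.44), while between classes both shares were lowest in cycling and highest in promyelinating cells. Within promyelinating cells the ribosomal protein share ranked against Ncmap with rho of -0.014 over 59 and -0.13 over 60 cells. Within cycling cells it ranked against Mki67 and Top2a with -0.0066 over 53 and -0.13 over 57 cells.

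Nearly the whole set was present in the median cell of each class. With every cell reduced to 50000 reads (5 shallower cells were omitted), the median cell held reads of 77 and 76 members in the cycling, 76 and 75 in the other and 79 and 79 in the promyelinating class. With all reads the medians were 79 and 78, 78 and 77, and 79 and 79. Of the 80 members above 1 CPM, 74 had a read in over 90% of cells, and 1, Rpl7l1, in under 50% (47.2%). Rpl3l and Rpl10l, minor paralogues of Rpl3 and Rpl10, had no read in any kept cell. Rpl39l had 5 reads, all in 1 class of plate 2. These 3 genes did not pass the filter on low counts, so 80 members were tested.

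Levels differed strongly between members. Levels are given as TMM-scaled CPM (with edgeR's correction for composition) averaged over the 6 sums of class and plate, and between genes per kilobase of the principal mRNA. They ran from 3320 for Rplp0 to 41.7 for Rps15a, a span of 79.6-fold, with a median of 577.7, against a median of 7.32 over 11657 protein-coding genes above 1 CPM. Of the 100 genes with the highest level per kilobase, 25 were members. Rplp0, which anchors the ribosomal stalk, was followed by Rps18 (2167) and Rpl13 (2016), and Rps27 stood at 1545. Below Rps20 (109.3) lay Rpl22 (58.2), Rpl7l1 (53.2) and Rps15a. The principal mRNAs used as the divisor were long for Rps15a (5179 bases), Rps20 (3706) and Rpl7l1 (2606). Not per length, Rps15a stood at 216.1 and Rps20 at 405.2 CPM, above Rpl37 (164.5 CPM, 835 bases). The places of Rps15a and Rps20 at the low end thus depended on dividing by length. By all annotated exons merged, Rpl22, Rpl7l1 and Rps15a still ranked 78, 79 and 80. Not per length, the members above 1 CPM ran from 51.5 (Rps21) to 4509 CPM (Rplp0). The order per kilobase was nearly the same on both plates (rho of 0.989 over 80 members). It depended on the length used: Rps18 ranked 2 by the principal mRNA and 18 by all annotated exons merged. Reads were also hard to place for some members, since over 50% of the 100-base stretches of 25 members recur in another annotated gene, among them Rps27 (98.4%), Rpl10 (84.4%) and Rpl13 (78.9%), and how the authors counted such reads is not stated.

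**Figure D2:**
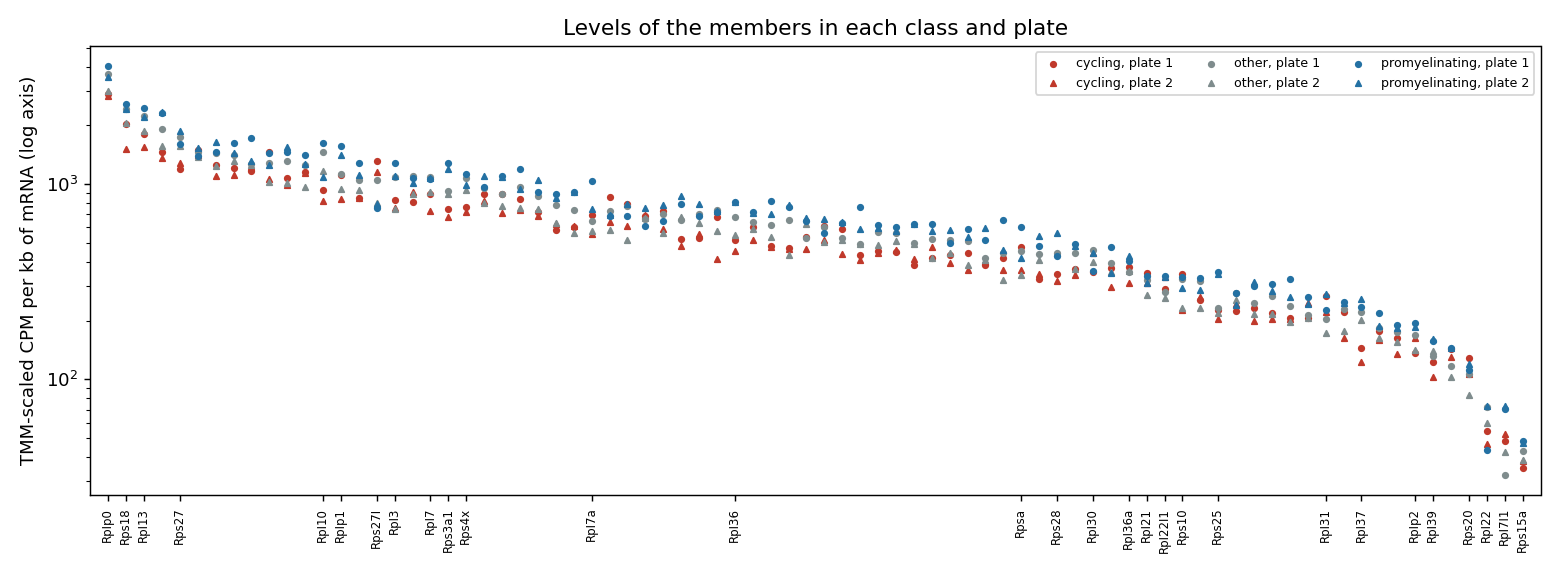
Level of each of the 80 members above 1 CPM in each class and plate, as TMM-scaled CPM per kilobase of the principal mRNA on a log axis, ordered by the mean, with symbols for some of the genes. Rplp0 stands highest at a mean of 3320, and Rpl22, Rpl7l1 and Rps15a stand below 100.

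The stalk proteins recruit translation factors to the ribosome. Rplp0 stood at 3922 and 3848 CPM in cycling, 4987 and 4050 in other and 5447 and 4800 in promyelinating cells. Rplp1 stood at 552.7 and 420.1, 562.9 and 471.8, and 786.0 and 700.6 CPM. Rplp2 stood at 131.5 and 156.3, 162.6 and 136.7, and 188.3 and 178.9 CPM. All 3 were highest in promyelinating cells on each plate, and none passed edgeR's test without a plate term in any comparison. With the plate as a block, Rplp0 (edgeR adjusted p = 0.0462) and Rplp1 (edgeR adjusted p = 0.0423) were lower in cycling than in promyelinating cells. Rpsa, which encodes a small subunit protein also known as the laminin receptor, was at 920.6 and 703.9, 880.1 and 662.8, and 1172 and 813.5 CPM, and its ratio between plates (1.36) was the largest of the members of at least 50 CPM. Rps10 followed (1.34), and at the other end stood Rpl7l1 (0.902), Rpl30 (0.911) and Rps28 (0.922).

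Cycling and promyelinating cells were compared first, as the classes farthest apart. Log2 fold changes were below 0 for 75 of 80 members, with a median of -0.41 against 0.018 over all 13289 genes tested, and ranged from -0.88 to 0.67. Tested by quasi-likelihood in edgeR, with p-values adjusted over all genes (Benjamini-Hochberg), 2 members passed an adjusted p of 0.05, both lower in cycling cells. Over all genes 5.93% passed in either direction and 2.11% were lower. At an unadjusted p under 0.05 there were 35 of 80 members, against 20.1% of all genes. This count was 16 of 80 without cycling cells of plate 2 or without promyelinating cells of plate 1, against 19.6% and 17.1% of all genes. Lower on both plates were 63 of 80 members, against 30.1% of all genes. Members had higher levels than most protein-coding genes, and genes of like level were not compared, here or in the comparisons below.

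Rps3a1, a small subunit gene with 2 snoRNA genes inside it, was among those called. Rps3a1 (chr3:86137940-86142702, minus strand) stood at 725.3 and 659.6 CPM in cycling, 903.5 and 874.3 in other and 1248 and 1166 CPM in promyelinating cells. Its 3 classes did not overlap, and cycling cells were lower than promyelinating cells by -0.80 ± 0.162 on the log2 scale (SE; adjusted p = 0.0248 in edgeR). Its call was lost when either plate of cycling or of promyelinating cells was left out, with 0 members called in each of these fits. With the plate as a block, which pairs sums from the same mice, 14 members were called, all lower, against 2.51% of all genes, among them Rps2, Rpl10a, Rpl13a, Rpl10, Rplp1, Rpl3, Rps25 and Rplp0. DESeq2, which called many unchanged genes in simulated data, called 18 lower and 1 higher, against 7.81% of all genes lower.

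Rpl37 had the largest difference of the members and did not pass: 120.4 and 102.6 CPM in cycling, 184.2 and 168.5 in other and 195.2 and 216.2 in promyelinating cells (-0.88 ± 0.251 on the log2 scale between cycling and promyelinating cells, adjusted p = 0.0881 in edgeR). Rpl36 came after Rpl37 and Rps3a1, with 197.1 and 174.0 CPM in cycling against 310.4 and 311.7 in promyelinating cells (-0.75, edgeR adjusted p = 0.107). Toward the other end of the range, Rpl21 stood at a log2 fold change of 0.034. The 4 members on X, Rps4x, Rpl10, Rpl36a and Rpl39, were all below 0, with a median of -0.50. The 30 snoRNA hosts had a median of -0.49, with 28 below 0. The 25 members with over 50% shared stretches had a median of -0.49 and the 55 others of -0.38.

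**Figure D3:**
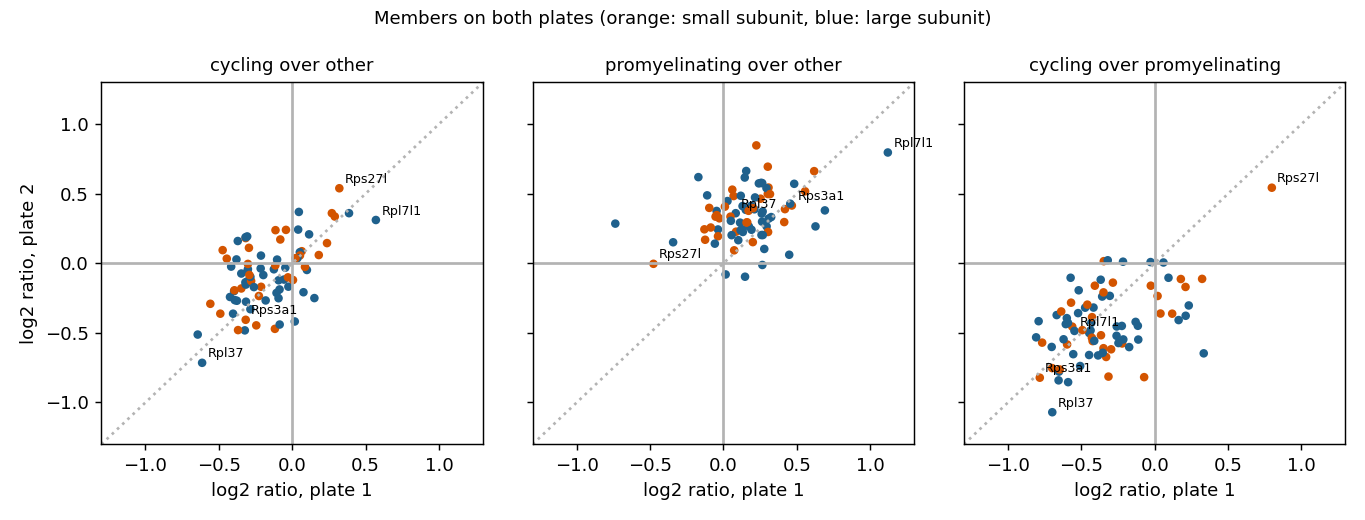
Log2 ratio of each of the 80 members between classes on plate 1 (horizontal) and plate 2 (vertical), small subunit in orange and large subunit in blue, with a dotted line of equality. In cycling over promyelinating cells, 63 members lie below 0 on both plates, and Rps27l lies alone far above 0.

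Between cycling and other cells no member was called by edgeR, against 0.978% of all genes. DESeq2 called 0 as well, against 445 genes called higher and 366 lower over all genes. In edgeR 3 of 80 members had an unadjusted p under 0.05, against 10.1% of all genes. Log2 fold changes were below 0 for 60 of 80 members, with a median of -0.15 against -0.069 over all genes, and 46 of 80 were lower on both plates, against 32.7% of all genes. These values rested on single sums. Without other cells of plate 1, 44 of 80 members were below 0 with a median of -0.033, and without those of plate 2 the median was -0.24. Without cycling cells of plate 2 the members' median (-0.11) lay above that of all genes (-0.24). With total reads in place of TMM scaling the median over all genes moved to -0.20 and that of the members to -0.28. Rpl37 (-0.66), Rpl10 (-0.58) and Rps4x (-0.43) lay lowest, and Rpl7l1 (0.43), Rps27l (0.42) and Rpl31 (0.37) highest. By subunit, 40 of 48 large and 20 of 32 small subunit genes were below 0.

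Between promyelinating and other cells no member was called by edgeR either, against 1.78% of all genes. At an unadjusted p under 0.05 there were 9 of 80, against 11.2% of all genes. With the plate as a block there were 19 of 80, also against 11.2% of all genes. Fewer members reached this without promyelinating cells of plate 1 or without other cells of plate 2, where a class is left with 1 sum. DESeq2 called 3, Rpl7l1, Rps25 and Rps3a1, all higher in promyelinating cells, against 2.63% of all genes higher. In simulated data DESeq2 called many unchanged genes. Log2 fold changes were above 0 for 76 of 80 members, with a median of 0.25 against -0.068 over all genes, and 61 were higher on both plates, against 25.9% of all genes. Without other cells of plate 2 the median was 0.145, with 65 members above 0. Rps25 stood at 456.3 and 442.5 CPM in promyelinating cells against 297.4 and 279.7 in other cells and 291.4 and 260.8 in cycling cells (0.64 ± 0.197 on the log2 scale over other cells, adjusted p = 0.219 in edgeR). Its promyelinating values lay apart from all others, which overlapped among themselves. On the opposite strand, 2 genes of the table overlap Rps25. Rpl7a followed with 0.55. Rps27l lay lowest (-0.25), with 376.0 against 523.4 CPM on plate 1 and 396.4 against 397.5 on plate 2. Rpl22 (-0.18) and Rpl30 (-0.092) were also below 0, and the signs of these 2 changed when promyelinating plate 1 was left out.

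**Figure D4:**
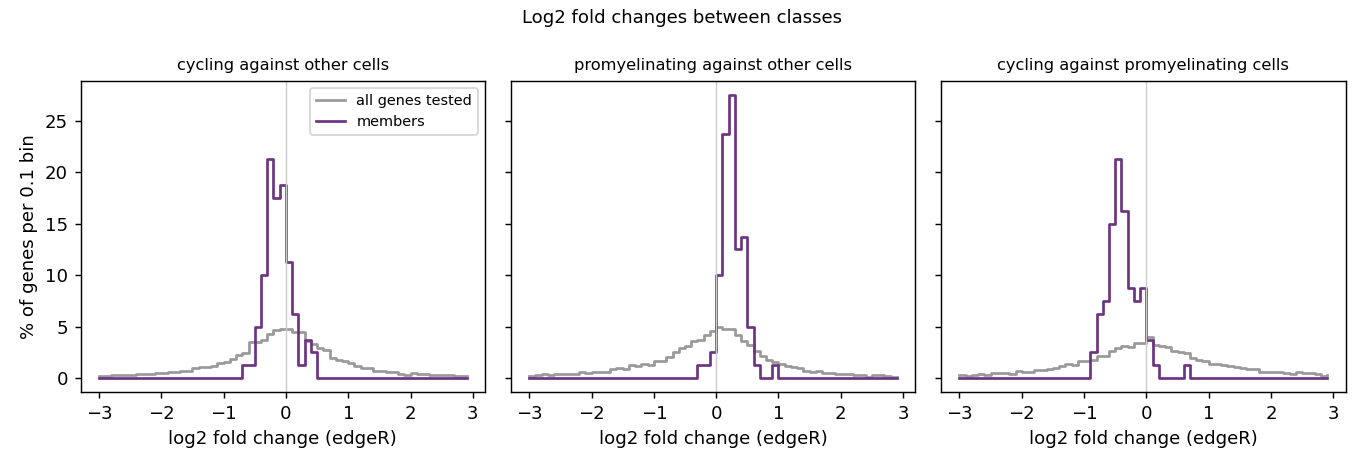
Percent of genes in bins of 0.1 of the log2 fold change, for the 80 members and for all 13289 genes tested, in the 3 comparisons. The members form narrow peaks with medians of -0.15, 0.25 and -0.41, and 12.3% to 18.6% of all genes lie beyond the axis, at a fold change of 3 or more on the log2 scale. Members have higher levels than most protein-coding genes (median per kilobase of 577.7 against 7.32 above 1 CPM), and genes of like level are not shown.

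Of the 3 minor paralogues tested, Rps27l was above 0 in cycling against promyelinating cells, while Rpl7l1 (-0.52) and Rpl22l1 (-0.098) were below 0 like most members. Rps27l, which encodes a near copy of the small subunit protein Rps27 and is known as a target of p53, was at 653.9 and 577.5 CPM in cycling, 523.4 and 397.5 in other and 376.0 and 396.4 in promyelinating cells. Rps27 ran the other way, at 410.7 and 443.9, 604.8 and 543.2, and 552.7 and 643.1 CPM. For both genes cycling values did not overlap those of the other classes. The log2 fold change between cycling and promyelinating cells was 0.67 for Rps27l (SE 0.207, edgeR adjusted p = 0.11) and -0.48 for Rps27 (SE 0.187, edgeR adjusted p = 0.194), so neither passed. Rps27l made up 61.4% and 56.5% of the reads of the pair in cycling, 46.4% and 42.3% in other and 40.5% and 38.1% in promyelinating cells. Per kilobase, cycling cells held 1310 and 1160 CPM of Rps27l against 1190 and 1290 of Rps27, so the order of the pair differed between the plates. The coding sequences of the pair, from GENCODE M21 transcripts, are of 252 bases each and differ at 60, shown in capitals, with at most 11 bases in a row identical.
Rps27: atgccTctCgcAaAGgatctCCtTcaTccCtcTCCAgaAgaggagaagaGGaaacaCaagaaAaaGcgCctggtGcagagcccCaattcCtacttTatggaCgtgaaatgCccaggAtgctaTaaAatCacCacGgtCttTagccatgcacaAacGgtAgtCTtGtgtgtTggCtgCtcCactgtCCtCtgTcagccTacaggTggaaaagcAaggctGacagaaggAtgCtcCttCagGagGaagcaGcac
Rps27l: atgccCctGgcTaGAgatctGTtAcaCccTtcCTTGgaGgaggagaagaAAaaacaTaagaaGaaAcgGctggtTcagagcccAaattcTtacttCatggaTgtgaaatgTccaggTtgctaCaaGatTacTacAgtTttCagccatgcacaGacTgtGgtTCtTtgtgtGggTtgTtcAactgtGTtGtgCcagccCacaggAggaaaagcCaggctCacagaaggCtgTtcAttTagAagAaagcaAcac
At an identity of 76.2%, the pair shares no stretch of 100 bases. Reads of Rps27 can still be confused with those of 2 other annotated genes, which hold 98.4% of its 100-base stretches, while Rps27l shares none with any.

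Rpl7l1, a paralogue of Rpl7 that acts in ribosome assembly, was at 183.8 and 191.0 CPM in promyelinating cells, 125.8 and 136.4 in cycling and 84.8 and 110.0 in other cells. The 3 classes did not overlap. The log2 fold change of promyelinating over other cells was 0.94 (SE 0.276, edgeR adjusted p = 0.192), the largest of the members. Rpl7 itself was at 1230 and 1254, 1036 and 843.3, and 1262 and 1060 CPM, and its coding sequence is 51.7% identical. Rpl22l1 was at 186.3 and 184.1 CPM in promyelinating, 160.4 and 185.6 in cycling and 155.4 and 143.7 in other cells, and made up 51.2% to 67.7% of the reads of its pair with Rpl22. Rpl22 was at 88.9 and 149.1, 112.0 and 95.2, and 148.2 and 122.4 CPM, with plates of the promyelinating class farther apart than the classes. Rpl39 was at 62.8 to 98.1 CPM with Rpl39l near 0, and Rpl3 and Rpl10 at 1003 to 1727 and 699.9 to 1388 CPM with Rpl3l and Rpl10l at 0.

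**Figure D5:**
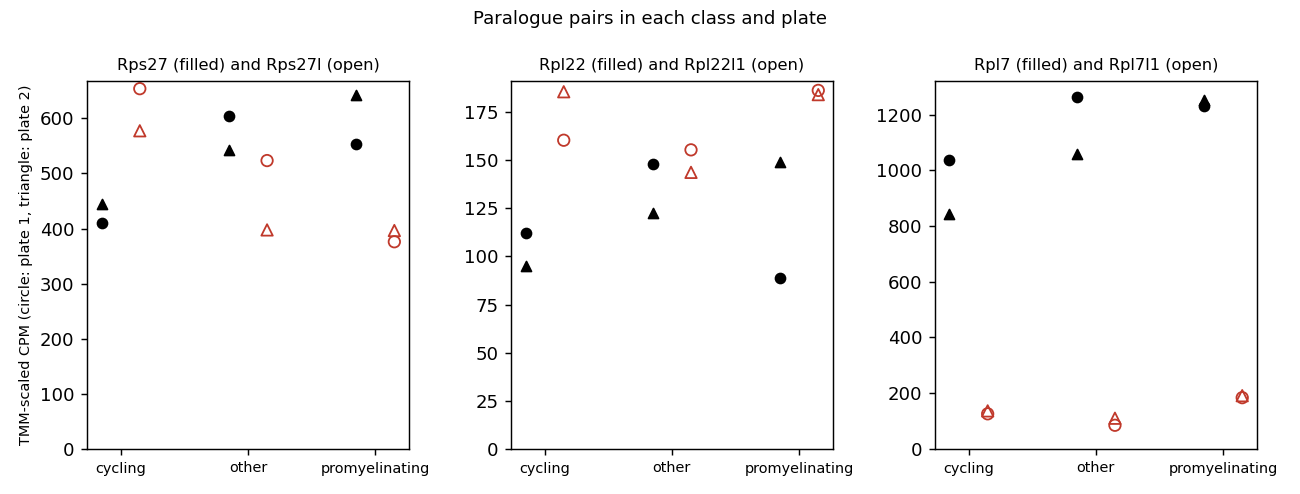
TMM-scaled CPM of Rps27, Rpl22 and Rpl7 (filled) and of their minor paralogues Rps27l, Rpl22l1 and Rpl7l1 (open) by class, with a circle for plate 1 and a triangle for plate 2. In these values, which are not per length, Rps27l lies above Rps27 in cycling cells of both plates and below it in the other classes, and Rpl7l1 is highest in promyelinating cells.

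Related genes outside the rule were compared in the same fit. Among further ribosomal protein genes, Fau, Rack1 and Rpl36al stood at -0.40, -0.57 and -0.62 in cycling against promyelinating cells, and none was called. Of 17 translation factor and other genes with TOP mRNAs that were tested, 14 were below 0 (median of -0.36). Eef1g, a subunit of elongation factor 1, was lower in cycling cells (451.0 and 404.8 against 799.2 and 802.5 CPM, log2 fold change of -0.90, edgeR adjusted p = 0.0241), and Nap1l1, a histone chaperone, was higher (338.8 and 402.1 against 102.7 and 141.3 CPM, 1.60, edgeR adjusted p = 0.00857). Of 32 genes for ribosome assembly and RNA polymerase I, 24 were below 0 (median of -0.34) and 1 was called, Polr1a, the largest subunit of that polymerase, at 4.95 and 6.21 CPM in cycling against 57.8 and 42.6 in promyelinating cells (log2 fold change of -3.17, edgeR adjusted p = 0.0161). Of 78 mitochondrial ribosomal protein genes, 42 were below 0 with a median of -0.084, and 3 were called lower in cycling cells. These counts, 3 of 78 and 1 of 32, stand beside the 2.11% called lower over all genes. The smallest p was that of Mrps6, which overlaps Slc5a3 on the same strand, so that reads of these genes may not be told apart. Mrps6 was at 51.1 and 37.1 CPM in cycling, 51.9 and 41.7 in other and 238.2 and 274.7 in promyelinating cells. It was higher in promyelinating cells both against cycling cells (log2 fold change of -2.54 for cycling minus promyelinating, edgeR adjusted p = 0.00323) and against other cells (2.45, edgeR adjusted p = 0.00802), where it was the only call in these 4 lists. Between cycling and other cells none of the 4 lists held a call.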

How the data were processed

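Reads were mapped by the authors with STAR and counted per gene with featureCounts. The submitters' processing notes name STAR 2.6.1c and GRCm38.p5, whereas the methods of the study name a human assembly, while the gene IDs are those of mouse. Strand use and reads with several matches are not described in the sources used here. Deposited values are unnormalised read counts for each gene and well, without molecular identifiers. The titles gave the plate. Symbols came from GENCODE M21 (25587 of 25700 IDs matched). The members, classes and gene lists were chosen with earlier results of these data known.

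Counts of the 621 kept cells were summed per class and plate into 6 sums (45073128 to 172878954 reads). Tests used edgeR 4.0.16 (TMM, filterByExpr, robust glmQLFit and glmQLFTest, no plate term) over all genes, with Benjamini-Hochberg adjustment. Mki67, Top2a and Ncmap chose the classes and were left out of the tests. Each standard error is the size of the log2 fold change divided by the root of its F statistic. Plates share mice between classes, and over 3410 genes their differences between plates had correlations of 0.136, 0.233 and 0.209 for the pairs of classes. A fit with the plate as a block was therefore added. Others were DESeq2 1.42.0, limma 3.58.1 on log2(mean CPM + 1), other scalings, no low-count filter, other minimums of genes (1000, 2500) and class limits (20, 100 CPM), thinning to 50000 reads, and each sum left out. The edgeR fits with and without the block, DESeq2 and limma were tested on simulated data, in which DESeq2 called many unchanged genes. The simulated data held no plate effect, and the other fits were not simulated. P-values measure the spread between 2 plates.

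Named members are those called, the 5 highest and 5 lowest per kilobase, minor paralogues with their main genes, the 3 most extreme in each direction by plate ratio and by log2 fold change in each comparison (at least 50 CPM), Rpsa and the stalk genes. Some genes that this rule or the lists hold are not reported here. Further members named among the block and DESeq2 calls were chosen after their values were seen. Motifs were searched on the strand of the gene for pyrimidine runs and on both strands for CGGAAG.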

Additional observations from a re-analysis of the deposited data

Results flagged for a closer look

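The 122 wells set aside for fewer than 1500 detected genes entered no comparison, yet held reads of the ribosomal protein genes. Their median share of reads was 5.37% in the 83 from plate 1 and 4.85% in the 39 from plate 2, with single wells up to 57.4% and 31.0%. Median depths were 6484 and 986 reads, and the shallowest wells had 39 and 36 reads, at which a share is set by a few reads. In the 38 and 15 such wells with at least 10000 reads, the medians were 8.11% and 5.80%. Wells without a cell are not marked in the labels, so no control level was at hand.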

How the results depend on the processing

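Cycling against other cells gave 0 called members under every alternative run, and promyelinating against other cells gave 3 with DESeq2 and 0 otherwise. Cycling against promyelinating cells gave 2 members, and 19 with DESeq2, 14 with the plate as a replicate block, 7 with limma and 7 after thinning to 50000 reads, 5 without the low-count filter and 5 with totals of non-members, 4 with total reads and 4 with classes at 100 CPM. Leaving out single sums gave 0 to 2, where a class left with 1 sum is assumed to vary like the others. In simulated data DESeq2 also called many unchanged genes. For cycling against promyelinating cells the members called were lower in cycling cells, but for 1 with DESeq2. Over all genes, those called lower there rose too, from 281 of 13289 (2.11%) in the main edgeR fit. They were 7.81% with DESeq2, 2.51% with the block, 556 of 13289 with limma and 429 of 11233 after thinning. Without the low-count filter they were 520 of 15937, with totals of non-members 313 of 13287. Total reads gave 302 of 13289 and classes at 100 CPM 305 of 13250. The block changed no other count of members called. At an unadjusted p under 0.05 it gave 11 of 80 members in place of 3 for cycling against other cells, against 10.2% of all genes. For promyelinating against other cells it gave 19 in place of 9, against 11.2% of all genes. For cycling against promyelinating cells it gave 43 in place of 35, against 19.9%. Without the block the shares over all genes were 10.1%, 11.2% and 20.1%. The log2 ratio of the summed share for cycling over promyelinating cells (-0.47) was -0.43 as a mean over cells, -0.49 and -0.51 with at least 1000 and 2500 genes, -0.43 after thinning and -0.41 with TMM-scaled CPM, and that for cycling over other cells (-0.28) was -0.15 with TMM-scaled CPM. With either plate alone the ratios were -0.45 to -0.48 for cycling over promyelinating, -0.21 to -0.35 for cycling over other and 0.12 to 0.24 for promyelinating over other cells. Signs turned for members near 0. Rpl22 (0.14) and Rpl30 (0.048) turned without promyelinating replicate 1, and Rpl30 (0.028) without other replicate 1. Rpl21 turned with total reads (-0.0197), totals of non-members (-0.044), at least 2500 genes (-0.0402), classes at 20 and 100 CPM (-0.0096 and -0.033) and without cycling replicate 1 (-0.055) or promyelinating replicate 2 (-0.024). Without single sums, the values ran from -0.606 to 0.14 for Rpl22, -0.247 to 0.048 for Rpl30 and -0.055 to 0.0963 for Rpl21. The causes were not tested. With 2 plates, moderate differences in single members are hard to detect.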
